A study of Mus musculus with 5 samples.

Results

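The constant-region genes of the mouse antibody heavy chains, the joining chain and the receptor that carries antibodies into the gut lumen were followed through single cells of the intestine. They are Igha, Ighm, Ighd, Ighg1, Ighg2b, Ighg2c, Ighg3 and Ighe, together with Jchain and Pigr, 10 genes of the 32285 in the deposited matrices, taken by symbol. All 10 were present in every matrix, and all had at least 1 unique molecular identifier (UMI, a tag that marks 1 captured transcript) in the kept cells. Transcripts had been counted on the 10x Genomics droplet platform in cells of mouse duodenum, jejunum, ileum, colon and rectum after a sort that discarded cells stained by propidium iodide, which marks dead cells. Each segment was 1 library, with no genotype or treatment group, and the labels used here give neither strain, age nor the number of animals. No segment was therefore replicated, and no test was made between segments. The labels name epithelial, mesenchymal and immune cells as the contents.

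A plasma cell secretes antibody of 1 class, set by the constant region that its rearranged heavy chain uses. A naive B cell carries IgM and IgD, which are spliced from 1 long transcript, and it can switch to IgG, IgE or IgA by deletion of the DNA in between. Germinal centres are sites in lymphoid follicles, such as Peyer's patches, where activated B cells divide, mutate and switch. IgA is the main antibody of the intestinal surface. Jchain encodes the joining chain that links IgA into dimers and IgM into pentamers, and Pigr encodes the polymeric immunoglobulin receptor, which binds these polymers at the base of epithelial cells and releases them on the lumen side with a piece of itself, the secretory component.

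The heavy chain genes lie in 1 cluster on chromosome 12, in RefSeq's table for GRCm38.p6 (the processing notes of the submitters name mm10, the same build). In the order of their use from the naive state they are Ighm (chr12:113418826-113422730), Ighd (chr12:113407535-113416324), Ighg3 (chr12:113357442-113361232), Ighg1 (chr12:113326541-113330523), Ighg2b (chr12:113304314-113307933), Ighg2c (chr12:113287389-113288932), Ighe (chr12:113269263-113273248) and Igha (chr12:113256204-113260236), each annotated as a constant region. Jchain (chr5:88519809-88527897) and Pigr (chr1:130826684-130852249) are ordinary protein-coding genes. The promoters of these last genes are shown because their transcripts marked opposite sides of antibody export, secreting cells and epithelium. Each runs from 250 bases before the annotated start to 25 bases after it, on the gene's own strand, from RefSeq for GRCm38.p6 (Pigr, chr1:130826434-130826708, plus strand; Jchain, chr5:88527873-88528147, minus strand). Capitals mark matches to 2 motifs that are known for the human PIGR gene, an E-box (CACGTG) and the core of an interferon response element (TTTCNNTTT).
Pigr: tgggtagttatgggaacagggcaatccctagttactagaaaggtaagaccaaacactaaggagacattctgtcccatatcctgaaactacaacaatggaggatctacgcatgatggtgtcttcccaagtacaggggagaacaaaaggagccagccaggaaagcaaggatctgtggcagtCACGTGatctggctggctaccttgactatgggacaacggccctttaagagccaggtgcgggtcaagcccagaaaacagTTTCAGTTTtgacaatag
Jchain: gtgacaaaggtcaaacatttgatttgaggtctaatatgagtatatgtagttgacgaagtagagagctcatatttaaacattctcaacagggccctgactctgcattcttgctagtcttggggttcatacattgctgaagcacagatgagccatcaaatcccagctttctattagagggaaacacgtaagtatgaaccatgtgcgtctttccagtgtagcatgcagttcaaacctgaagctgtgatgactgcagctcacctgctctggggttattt
Both strands were searched. The Pigr window held the E-box at positions -71 to -66 from the start, a palindrome that reads the same on both strands, and the interferon response core at positions 8 to 16 after it. No match lay in the Jchain window. Of 27025 mouse promoters of the same length, 1829 (6.77%) held the E-box and 2755 (10.2%) the other motif. A match describes these letters and does not show that a factor binds.

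The libraries held 16535 barcodes and 250629913 UMIs, of which 11922 cells with 210173327 UMIs were kept, between 1829 and 3196 cells a library. Median UMIs per kept cell were between 5038.5 and 9783, and 30 barcodes occurred in more than 1 library. Cells were clustered and named without immunoglobulin genes, Jchain or Pigr, so that none of the 10 genes chose the cells they are described in. All other genes took part: Mzb1, Derl3, Eaf2, Tnfrsf17 and Ccr10 were among the leading genes of the plasma-like cluster, and Rgs13, Mef2b, Nuggc and Basp1 among those of the germinal centre cluster, so their presence there is a description. This gave 472 plasma-like cells, 148 germinal centre B-like cells, 3621 other B-like cells and 4937 epithelial cells. A further 89 cells lay in other clusters but had UMIs of at least 9 of 12 plasma cell markers, and they were set aside. They had high totals, for example a median of 52608 UMIs among the 33 in the germinal centre cluster against 10316.5 in the rest of it, and they held 18.8% of Igha and 18.8% of Jchain UMIs. Immunoglobulin genes made up 2.23%, 3.32%, 1.41%, 3.27% and 14.2% of all UMIs in duodenum, jejunum, ileum, colon and rectum, the order used throughout. The 95% intervals below are exact and cover counting error only.

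Nearly every plasma-like cell in every segment was committed to IgA. A cell was assigned a class when it had at least 5 heavy chain UMIs and at least 60% of them belonged to that class, with IgM and IgD taken as 1 class. By this rule 464 of 472 plasma-like cells were IgA cells, a share of 98.3% (exact binomial interval 96.7% to 99.3%). The counts were 77 of 77 in duodenum, 51 of 52 in jejunum, 25 of 28 in ileum, 76 of 77 in colon and 235 of 238 in rectum. The lowest share, 89.3% in ileum, had an interval of 71.8% to 97.7%, which overlapped those of the other segments. Plasma-like cells made up 2.41%, 2.84%, 1.14%, 3.58% and 10.4% of kept cells, so the rectal library held the most.

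**Figure D1:**
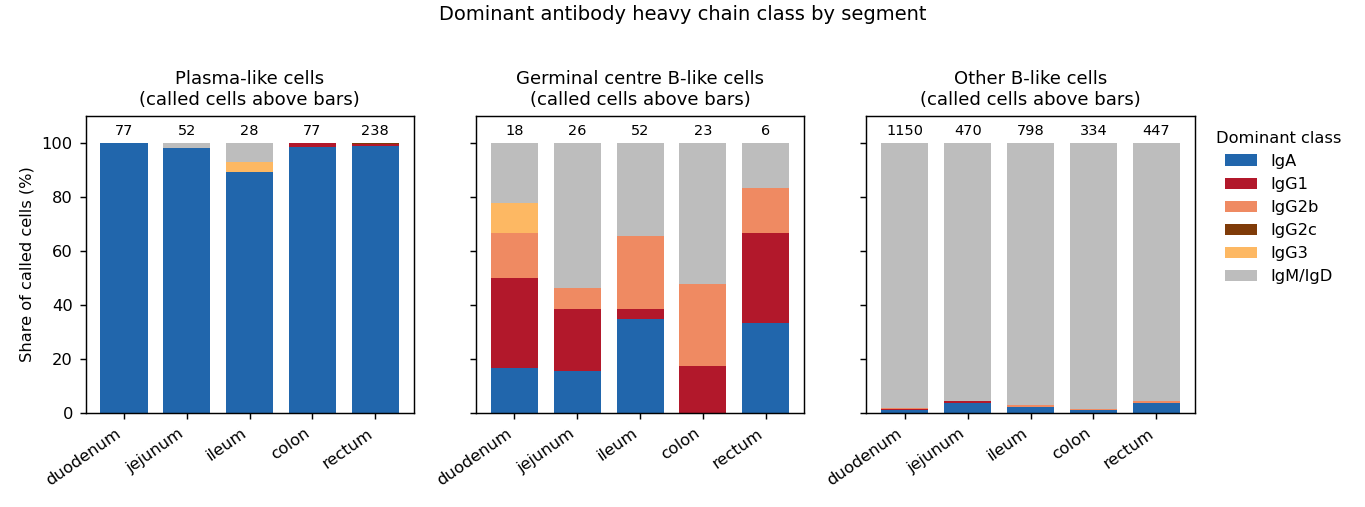
Share of cells by dominant heavy chain class, in percent of cells with a class, for plasma-like cells (left), germinal centre B-like cells (middle) and other B-like cells (right) in each segment, with the number of such cells above each bar. IgA filled at least 89.3% of every plasma-like bar, whereas IgM/IgD filled at least 95.5% of every bar of other B-like cells.

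Within a plasma-like cell the class was close to pure. The median cell had 3322 heavy chain UMIs, and in 425 of 472 cells (90.0%) the leading class took more than 99% of them. Heavy chain counts ran from 17 to 17558 UMIs, and the lowest leading share was 91.7%. The cell with 17 was a rectal cell called IgA, with 1743 Jchain UMIs. The part of free RNA in the calls of cells with few heavy chain UMIs was not tested. Per segment the median was 2739, 3987.5, 2889.5, 2388 and 3533.5 heavy chain UMIs. Immunoglobulin genes together took a median of 58.1% of a plasma-like cell's UMIs. Igha was at 146077, 161142, 119878, 111389 and 116974 CPM (UMIs of the gene per 1000000 UMIs of the class, summed in a library). No segment was more than 1.5 times above another in this level.

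The 8 exceptions were IgM and IgG cells. In jejunum 1 cell was an IgM cell, with 7633 UMIs of IgM and IgD together and 45 Igha UMIs. In ileum 2 cells were IgM cells, with 934 and 1372 UMIs of the leading class, and 1 was an IgG3 cell with 1412 UMIs. In colon 1 cell was an IgG1 cell with 3843 UMIs and no Igha UMI. In rectum 2 cells were IgG1 cells with 3265 and 10451 UMIs, and another was the only IgG2c cell, with 2929 UMIs. These single cells held most of the UMIs of their class in plasma-like cells: Ighg1 reached 2255 CPM in colonic and 1741 CPM in rectal plasma-like cells, against 9.70, 40.8 and 28.1 CPM in duodenum, jejunum and ileum. No plasma-like cell was assigned to IgG2b or IgE. Ighe had 27 UMIs in all kept cells, 24 of them in 1 rectal plasma-like cell and the other 3 in 1 duodenal B-like cell, and no cell was assigned to it.

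Kappa was the leading light chain of most plasma-like cells, and lambda of the rest. Kappa led in 64 of 77, 45 of 52, 26 of 28, 71 of 77 and 176 of 238 plasma-like cells. The share was 73.9% in rectum (67.9% to 79.4%), against 83.1%, 86.5%, 92.9% and 92.2% in duodenum, jejunum, ileum and colon. Only the colonic interval (83.8% to 97.1%) lay wholly above the rectal one. With 1 library each, segment and library cannot be told apart, and cells of 1 clone would share their light chain.

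Jchain was transcribed in all 472 plasma-like cells, whatever the class. Its level differed little between segments, at 66427, 68125, 70319, 65782 and 69538 CPM, a spread of 68038 ± 1946 CPM (SD over 5 libraries). Of all Jchain UMIs, 80.1% lay in plasma-like cells, and the set-aside cells held nearly all of the rest. The median IgA cell had 1801 Jchain UMIs. Within IgA cells Jchain followed the heavy chain: the correlation of log UMIs across cells was 0.93, 0.79, 0.92, 0.95 and 0.81 in the 5 segments, a description of cells that also share their depth. For each 100 heavy chain UMIs the median IgA cell had 46.7, 41.9, 57.8, 60.8 and 60.9 Jchain UMIs. The UMI ratio is not corrected for gene length or capture.

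**Figure D2:**
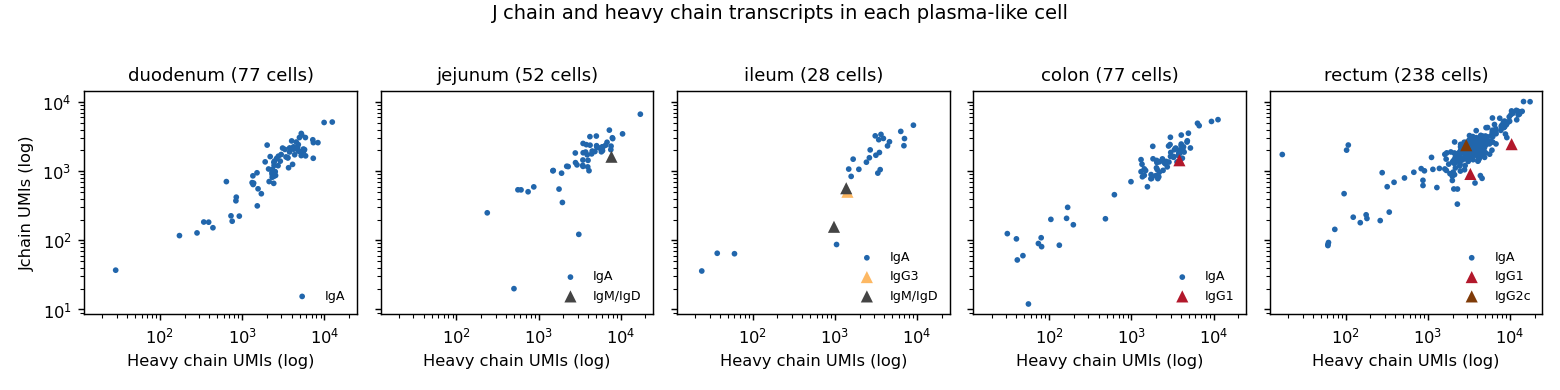
Jchain UMIs against heavy chain UMIs of each plasma-like cell, both on log axes, 1 panel per segment, with IgA cells as small points and the 8 cells of other classes as triangles. The points rise together in every panel, and the triangles lie at the level of the IgA cells or below it.

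The cells of other classes also carried Jchain. The 3 IgG1 cells had 1439, 912 and 2460 Jchain UMIs, the IgG2c cell had 2376 and the IgG3 cell had 504. IgG is secreted as a monomer and does not use the joining chain. The 3 IgM cells had 1618, 157 and 567 Jchain UMIs. Over the 8 cells the median was 31.6 Jchain UMIs per 100 heavy chain UMIs (quartiles 22.9 and 38.4), against 54.7 in the 464 IgA cells (quartiles 44.0 and 71.2). Only 3 IgM cells from 2 segments were found, so no fit of IgA against IgM plasma-like cells was made.

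The genes whose levels were most like Jchain across 63 groups of cell class and segment, among 13475 genes compared on log2(CPM + 1), were Slpi, a secreted protease inhibitor (r = 0.83), the agouti gene (symbol a, r = 0.82), Prg2, an eosinophil granule protein (r = 0.82), Tnfrsf17, the receptor BCMA that keeps plasma cells alive (r = 0.80), and Eaf2, an elongation factor partner (r = 0.80). The groups share libraries, and these values are descriptions.

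Plasma-like cells of all segments carried the gut homing receptor Ccr10, but Ccr9 was present mainly in the small intestine. CCR9 binds the chemokine CCL25, and CCR10 binds CCL28. Ccr10 was at 186, 146, 186, 182 and 164 CPM. Ccr9 was at 76.5, 96.8, 53.2, 10.2 and 4.74 CPM, and the ileal Poisson interval (37.2 to 73.6 CPM) did not meet the colonic one (6.04 to 16.1 CPM). In absorptive cells the ligand Ccl25 was at 1060, 1060, 1063, 24.2 and 10.3 CPM. Ccl28 ran the other way there, at 8.63, 9.89, 7.45, 23.5 and 108 CPM. Both ligands differed between the small intestinal libraries and colon or rectum by more than counting error. The integrin subunits Itga4 (87.3 to 112 CPM) and Itgb7 (80.8 to 129 CPM), which bind the gut vessel addressin, and BCMA's gene Tnfrsf17 (90.1 to 181 CPM) were present in plasma-like cells of all segments.

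**Figure D3:**
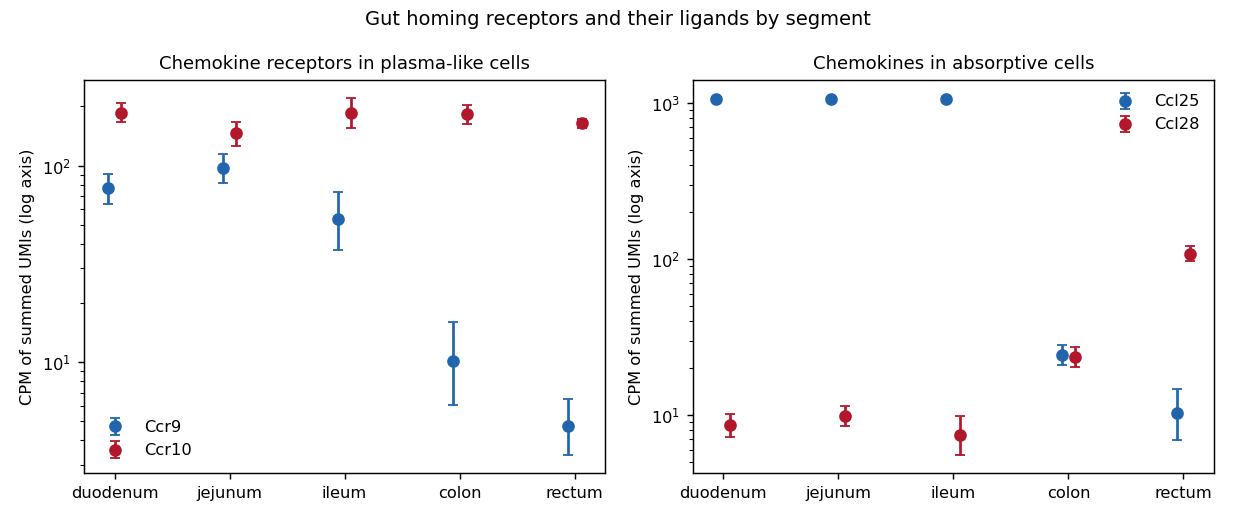
Levels of Ccr9 and Ccr10 in plasma-like cells (left) and of Ccl25 and Ccl28 in absorptive cells (right) by segment, as CPM of summed UMIs on a log axis, with exact Poisson intervals as bars. Ccr9 and Ccl25 are lowest in rectum (4.74 and 10.3 CPM), and Ccl28 is highest there (108 CPM).

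Germinal centre B-like cells had little Ighd, whereas most other B-like cells carried both IgM and IgD. In germinal centre B-like cells Ighd was at 19.6, 27.3, 48.9, 15.2 and 39.3 CPM and Ighm at 788, 1661, 1124, 1087 and 387 CPM. In other B-like cells Ighd was at 806, 894, 744, 789 and 734 CPM and Ighm at 2457, 2603, 1864, 1994 and 2026 CPM. Both genes were found in 19.6% of germinal centre and 85.4% of other B-like cells, and the ratio of summed Ighm to Ighd UMIs was 33.7 in germinal centre cells and 2.80 in the others (2.51 to 3.05 by library). The germinal centre value was the lower for Ighd in each of 5 libraries, and the groups did not overlap. T-like cells gave a background of 171 CPM for Ighm and 8.43 CPM for Ighd.

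A switched class was assigned to a larger share of germinal centre B-like cells than of other B-like cells. Of 148 germinal centre cells 125 had a class, 18 were mixed and 5 had too few UMIs. Among those with a class, 76 of 125 (60.8%, interval 51.7% to 69.4%) were assigned a switched one: 27 IgA, 20 IgG1, 27 IgG2b and 2 IgG3. Among other B-like cells with a class, 92 of 3199 (2.88%, interval 2.32% to 3.52%) were assigned a switched class: 68 IgA, at a share over all libraries no higher than in T-like cells (below), and 24 an IgG class. By segment the germinal centre counts were 14 of 18, 12 of 26, 34 of 52, 11 of 23 and 5 of 6, or 77.8%, 46.2%, 65.4%, 47.8% and 83.3%. The rectal share has an interval of 35.9% to 99.6%, and 6 of the 12 rectal cells were mixed. The share of the other B-like cells was 1.91%, 4.47%, 3.01%, 1.497% and 4.47%, so every germinal centre value lay above every other one. IgA was the class of 18 of 52 germinal centre cells in ileum and of 0 of 23 in colon (interval 0 to 14.8%), where 7 were IgG2b and 4 IgG1 cells. The 2 IgG3 cells were duodenal.

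Cells that make no antibody also met the rule for IgA. The rule for IgA was met by 68 of 3621 other B-like cells (1.88%) and by 20 of 701 T-like cells (2.85%), 11 of them among 83 rectal cells. Over all libraries the share of other B-like cells is no higher than this background, and it is not read as expression. By segment it was 1.04%, 3.45%, 1.96%, 0.741% and 3.07%, against 1.54%, 1.98%, 0.87%, 1.28% and 13.3% of T-like cells. In jejunum and ileum it was the higher, with overlapping intervals. The rule also meets unlike cells, with a median of 11 heavy chain UMIs in other B-like and 1 in T-like cells. Of the 68 cells, 19 had at least 20 heavy chain UMIs, and how many express Igha was not tested. Macrophage-like cells met the rule in 59 of 486 cells (12.1%, interval 9.37% to 15.4%), at a median depth of 7322.5 UMIs. The germinal centre share, 27 of 148 cells (18.2%, 12.4% to 25.4%), overlapped that interval. In ileum it was 18 of 59 germinal centre and 0 of 81 macrophage-like cells, whereas in rectum it was 2 of 12 germinal centre and 53 of 104 macrophage-like cells. The part of free RNA in the germinal centre IgA calls was not tested. An IgG class was assigned to 49 of 148 germinal centre B-like cells (33.1%), 24 of 3621 other B-like cells (0.663%) and no T-like cell, which allows a share of up to 0.525% (upper exact limit). Median depth was 10316.5 UMIs in germinal centre B-like, 3272 in other B-like and 4319 in T-like cells. A UMI of Igha was found in 33.9% of other B-like and in 47.4% of T-like cells. After thinning every cell to 1000 UMIs these shares were 14.5% and 18.6%. Jchain was at 853, 829, 597, 763 and 5373 CPM in germinal centre B-like cells, at 76.4, 137, 32.0, 99.8 and 277 CPM in other B-like cells and at 44.6, 58.7, 17.4, 451 and 214 CPM in T-like cells. Germinal centre values lay above all others, and those of other B-like and T-like cells overlapped. After thinning, 7.35% of other B-like and 6.43% of T-like cells had a Jchain UMI, so over the whole class the share was near the background. Within the other B-like cells Jchain was at 773 CPM in the 68 IgA cells (55.9% with a UMI), against 77.8 CPM in the 3107 IgM/IgD cells (19.6%). The part of free RNA in this difference was not tested.

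Taking both B-like clusters together, 36 of 1168, 33 of 496, 58 of 850, 16 of 357 and 25 of 453 cells with a class were assigned a switched one, IgA calls of other B-like cells included. The shares were 3.08% (2.17% to 4.24%), 6.65% (4.62% to 9.22%), 6.82% (5.22% to 8.73%), 4.48% (2.58% to 7.18%) and 5.52% (3.603% to 8.04%). The duodenal interval lay below those of jejunum and ileum. The libraries also differed in germinal centre cells, with 20, 28, 59, 29 and 12, and their part in these shares stands in the values without them above.

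Transcripts other than immunoglobulin genes were compared between switched and IgM/IgD B-like cells, with counts summed by side in each of 5 libraries and tested in edgeR (quasi-likelihood, blocked on library). Cells assigned a switched class, called switched cells here, had more Jchain and more of 6 memory and B1 cell genes, and less of 10 naive and follicular genes. Of 7095 genes tested, 1124 (15.8%) were higher and 1065 (15.0%) lower in switched cells at a Benjamini-Hochberg adjusted p under 0.05. The sides differed in make-up: 76 of 168 switched cells but 49 of 3156 IgM/IgD cells came from the germinal centre cluster. A further 68 of the 168 were other B-like cells with an IgA call, whose share over all libraries was no higher than in T-like cells. Depth differed as well, with median UMIs of 7826.5, 7877, 8018, 6772.5 and 4623 in switched cells and 3236, 3594, 3423.5, 2826 and 3445 in IgM/IgD cells. Without germinal centre cells, in the 4 libraries with at least 10 cells a side, 238 genes (3.36%) were higher and 254 (3.59%) lower, and with cells paired by total UMIs 117 were higher and 199 lower of 4288 tested. Pairing by depth left the make-up unequal. Of the paired cells, 14, 12, 34, 11 and 5 switched but 2, 9, 13, 6 and 0 IgM/IgD cells came from the germinal centre cluster. Whether make-up and depth account for the differences between the sides was not tested beyond these fits.

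Jchain was at 887, 1096, 660, 885 and 5936 CPM in switched B-like cells, against 57.8, 105, 59.7, 160 and 259 CPM in IgM/IgD B-like cells. Every switched value was above every IgM/IgD value. The log2 fold change was 3.48 ± 0.20 (SE, edgeR adjusted p = 1.2e-08). The rectal value rests largely on 1 germinal centre cell with 1330 Igha UMIs, and without rectum the log2 fold change was 3.25. It was 2.85 without germinal centre cells, 3.01 for IgG cells alone against IgM/IgD cells (a fit in which 14.0% of 6591 genes were higher and 14.4% lower), and 2.49 with cells paired by depth, all at an edgeR adjusted p under 0.05. The fit of IgG cells also differs in make-up. In the fit without germinal centre cells, most switched cells were those other B-like cells with an IgA call. They were 13 of 22, 18 of 21, 18 of 24 and 16 of 20 in duodenum, jejunum, ileum and rectum. The part of free RNA in that Jchain value was not tested. Within the germinal centre cluster Jchain was at 855 CPM in IgG1 and 895 CPM in IgG2b cells, against 412 CPM in IgM/IgD cells. Among other B-like cells it was at 167 CPM in 7 IgG1 cells, 79.5 CPM in 15 IgG2b cells and 0 in 2 IgG3 cells, against 77.8 CPM in IgM/IgD cells. These IgG values rest on only 6, 8 and 0 Jchain UMIs. Within the germinal centre cluster a Jchain UMI was found in 92.6% of IgA, 100% of IgG1, 96.3% of IgG2b and 77.6% of IgM/IgD cells.

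Of the 18 class switching and germinal centre genes, 16 were tested, 5 were higher and 4 lower, with a median log2 fold of 0.22, against -0.01 over all genes tested. The share over all genes tested, 15.8% higher and 15.0% lower, stands beside this list and those that follow. Rgs13, a brake on chemokine signalling in germinal centre B cells, was at 524, 291, 369, 296 and 120 CPM in switched cells, against 5.23, 25.3, 32.8, 40.0 and 8.77 CPM in IgM/IgD cells (log2 fold change 3.93 ± 0.35 SE, edgeR adjusted p = 4.1e-07). The groups did not overlap. The germinal centre transcription factor gene Mef2b rose by 3.35, the death receptor gene Fas by 3.30 and the germinal centre repressor gene Bcl6 by 1.31 on the log2 scale. Bcl6 was higher in 4 of 5 libraries and lower in rectum. Fas also rose without germinal centre cells (3.47), whereas Bcl6 turned round (-4.06). Irf4, Tgfb1, Tgfbr2 and Cd40 fell (log2 fold changes -0.97, -0.70, -0.82 and -0.69). Irf4 and Tgfb1 were lower in 4 of 5 libraries and higher in rectum. Tgfbr2 missed the threshold without jejunum (-0.66) and Cd40 without ileum (-0.64). None of these 4 passed the test without germinal centre cells, where Cd40 was at 0.047. With cells paired by depth Rgs13 (1.95), Mef2b (1.56) and Fas (1.51) passed, whereas Bcl6 (1.05), Irf4 (-0.76), Tgfb1 (-0.54), Tgfbr2 (-0.51) and Cd40 (-0.33) did not. Rgs13, Mef2b, Fas and Bcl6 were among the markers that named the germinal centre cluster. Its cells were more frequent on the switched side of the paired fit too, so a rise of these genes apart from make-up was not tested there. The uracil glycosylase gene Ung, which takes part in class switching, was at 0.69 (edgeR adjusted p = 0.055) and did not pass.

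Of the 12 genes of memory, B1 and innate-like B cells, 8 were tested, 6 were higher and none lower, with a median log2 fold of 1.59. Nt5e, the ectonucleotidase CD73 of memory B cells, was at 130, 89.4, 145, 57.4 and 72.3 CPM in switched cells, against 6.98, 7.07, 8.36, 6.82 and 4.39 CPM in IgM/IgD cells (log2 fold change 3.82 ± 0.23 SE, edgeR adjusted p = 1.7e-08). No library broke this order. Zbtb20 and Bhlhe41, transcription factors linked to memory and B1 cells, rose by 1.95 and 2.07, and Anxa2, a membrane-binding annexin, by 2.55. Cd44, an adhesion receptor, rose by 1.22 and Fcrl5, an Fc receptor-like protein, by 1.05. Both were higher in 4 of 5 libraries and lower in colon. All 6 rose without germinal centre cells too, by 4.61 (Nt5e), 3.56 (Bhlhe41), 2.32 (Zbtb20), 1.70 (Anxa2), 2.44 (Cd44) and 2.64 (Fcrl5). In IgG cells alone Fcrl5 was at -0.73, Cd44 at 0.50 and Bhlhe41 at 1.003, and none of these passed the test. With cells paired by depth Fcrl5 was at -0.089 and Cd44 at 0.20, neither past it, and the other 4 passed. Fcrl5 also missed the threshold without jejunum (0.94) or without rectum (0.76). In that fit without germinal centre cells Ccr6, Itga4 and Plac8 rose by 1.09, 1.38 and 1.10 as well, though none of the 3 passed with all cells.

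**Figure D4:**
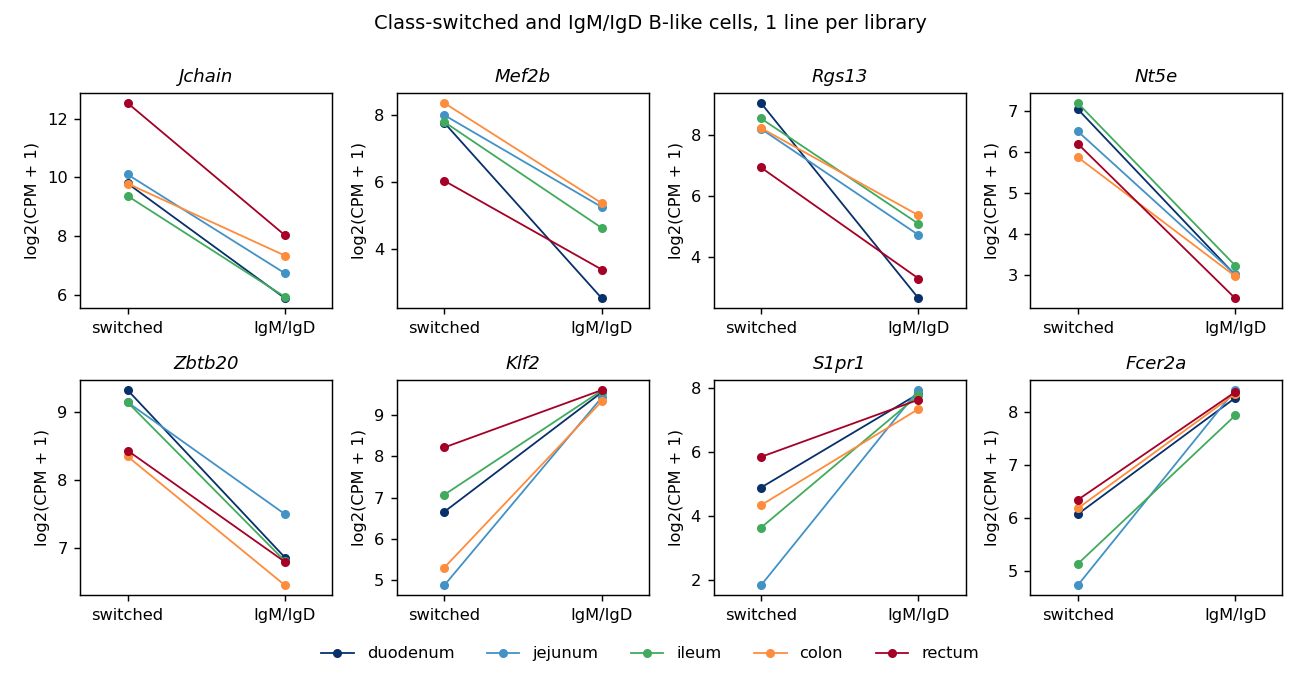
Level of 8 genes in B-like cells assigned a switched class (left) and in IgM/IgD (right) B-like cells, as log2(CPM + 1), with 1 line per library. Jchain, Mef2b, Rgs13, Nt5e and Zbtb20 are higher and Klf2, S1pr1 and Fcer2a lower in switched cells in all 5 libraries.

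Of the naive and follicular genes all 11 were tested, none was higher and 10 lower, with a median log2 fold of -1.80. Fcer2a, the low-affinity IgE receptor CD23 of follicular B cells, was at 66.4, 25.5, 34.1, 71.7 and 80.3 CPM in switched cells, against 308, 342, 245, 325 and 333 CPM in IgM/IgD cells (log2 fold change -2.70 ± 0.20 SE, edgeR adjusted p = 9.3e-08). Fcmr, the receptor for IgM, was at 185, 120, 140, 90.8 and 225 CPM in switched cells, against 633, 445, 533, 447 and 610 CPM in IgM/IgD cells (log2 fold change -1.95). In both genes the groups were apart. Further log2 fold changes were -2.99 for Klf2, a quiescence factor, -3.15 for the complement regulator gene Cd55, -1.80 for the complement receptor gene Cr2, -1.72 for Foxp1, -1.19 for the chemokine receptor gene Ccr7, -1.13 for the inhibitory receptor gene Btla and -0.49 for Cd22, which was lower in 3 of 5 libraries. Cd22 missed the threshold without duodenum (-0.42), jejunum (-0.31) or ileum (-0.52). Paired by depth, 8 of these 10 passed, but Btla (-0.24) and Cd22 (-0.047) did not. With germinal centre cells left out 9 of the 10 also fell, and Ccr7 was at 0.36. Bach2, the eleventh, was at 0.23 with all cells and fell by 1.88 without germinal centre cells.

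Of the 15 genes of mucosal homing 9 were tested, none was higher and 5 lower, with a median log2 fold of -0.59. S1pr1, the receptor by which lymphocytes leave tissue, was at 28.5, 2.56, 11.4, 19.1 and 56.2 CPM in switched cells, against 223, 242, 216, 160 and 196 CPM in IgM/IgD cells (log2 fold change -3.64). The integrin gene Itgb7 and Cxcr4 fell (-2.23 and -0.59), but neither passed without germinal centre cells or, at -1.18 and 0.080, with cells paired by depth. S1pr1 passed there (-2.53), and Ccr7 is described above. Of 20 genes of the plasma cell secretory programme 16 were tested, 8 were higher and 1, Irf4, lower, with a median of 0.42. The 12 plasma cell markers that named plasma-like cells and set cells aside are all in this list. That rule took 33 cells out of the germinal centre cluster, 29 of them with an IgA call. The values of these markers are therefore not independent of the choice of cells. Eaf2 rose by 2.86, Derl3, of protein disposal in the endoplasmic reticulum, by 2.64, and Tent5c, which lengthens poly(A) tails, by 1.97. Smaller rises were those of Slamf7 (0.98), Pou2af1 (0.91), Mzb1 (0.87), Txndc5 (0.84, higher in 4 of 5 libraries) and Sec11c (0.52). Derl3, Tent5c, Mzb1 and Sec11c also rose without germinal centre cells, Slamf7, Pou2af1 and Txndc5 (0.68, 0.34 and 0.57) did not pass there, and Eaf2 was not tested. With cells paired by depth Eaf2 (1.56) and Mzb1 (0.48) passed, Tent5c (0.59), Txndc5 (0.62), Pou2af1 (0.53), Sec11c (0.33) and Slamf7 (-0.044) did not, and Derl3 was not tested. Xbp1, the master factor of secretion, was at 0.27 (edgeR adjusted p = 0.51). Of 5 BAFF and APRIL genes 2 were tested and neither passed, Tnfrsf13b at -0.18 and Tnfrsf13c at -0.33.

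Of the 13 Fc and polymeric immunoglobulin receptor genes 6 were tested, 1 was higher and 3 lower, with a median of -0.61. Over all genes tested 15.8% were higher and 15.0% lower, so 1 higher of 6 is near that share. Lman1, a cargo receptor of the secretory route, rose by 1.19, and the inhibitory IgG receptor gene Fcgr2b fell by 1.16, beside Fcmr and Fcer2a. Neither Lman1 (0.23) nor Fcgr2b (-0.79) passed without germinal centre cells. In the fit paired by depth Fcgr2b (-0.97) passed and Lman1 (0.63) did not. Pigr was at -0.06 (edgeR adjusted p = 0.95), and other B-like cells had 44.7 CPM of it, against 34.9 CPM in T-like cells. The remaining lists, written for epithelium, gave 6 lower of 10 tested (16 in all, median -0.83) among genes that act upstream of Pigr (Il4ra, Irf1, Ifngr2, Nfkbiz and Nfkb1 were at -1.38, -1.46, -1.11, -0.87 and -0.86). Of these 6, Il4ra (-0.88) alone passed without germinal centre cells. With all cells Il4ra and Nfkbiz were lower in 4 of 5 libraries. In the fit paired by depth Nfkb1 (-0.86) passed, Il4ra (-0.65), Ifngr2 (-0.66) and Nfkbiz (-0.74) did not, and Irf1 was not tested. The transport route list gave Marcksl1 higher by 0.78 and Lyn lower (-0.51) of 6 tested (14 in all, median 0.01). That 1 of 6 each way is near the share over all genes tested. Without germinal centre cells Marcksl1 was at -0.30 and Lyn at 0.059. With cells paired by depth Marcksl1 was at -0.11 and Lyn at -0.34, neither past the threshold. Nfkbiz missed the threshold without duodenum (-0.69), and Lyn without jejunum (-0.46) or colon (-0.39). Of 9 epithelial products 1, Ccl25, was tested and did not pass. The light chain genes had been left out with the other immunoglobulin genes.

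Among the 10 largest rises, beside Rgs13, Sh2d1b1 rose by 4.88, Tox by 4.53, Osbpl3 by 4.45, Fscn1 by 4.37, Basp1 by 4.36, Efnb1 by 4.06, Nuggc by 4.03 and Bcl2a1a by 3.96, each in all 5 libraries. NUGGC, a nuclear GTPase, and the ephrin EFNB1 are known from germinal centre B cells. Basp1 was the most abundant of these, at 773, 777, 830, 999 and 530 CPM in switched cells, against 11.0, 50.5, 50.5, 93.7 and 11.9 CPM in IgM/IgD cells. Of the 10, Sh2d1b1, Fscn1, Basp1 and Bcl2a1a were tested without germinal centre cells and rose there too, by 5.62, 5.12, 3.61 and 6.03. Paired by depth, Tox (2.05), Basp1 (2.22), Efnb1 (2.89) and Nuggc (1.92) passed, and Fscn1 (1.33) did not. Bcl2a1a belongs to a family of near-identical copies, so its reads could be split between them. Among the 10 largest falls, beside S1pr1, the log2 fold changes were -5.66 for Ms4a4c, -5.06 for Maml3, -4.33 for Rnf144a, -4.25 for Rbpms, -3.65 for the chromatin organizer gene Satb1, -3.48 for Zfp318 and -3.48 for Maf. ZFP318 is the factor that permits IgD to be made from the long IgM and IgD transcript. Zfp318 was at 19.0, 5.11, 19.5, 0 and 48.2 CPM in switched cells, against 209, 206, 140, 128 and 133 CPM in IgM/IgD cells. The last of the 10, Mapk12, had no UMI in switched cells of any library, against 14.3 to 20.7 CPM in IgM/IgD cells.

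Pigr was an epithelial transcript: 99.03% of its UMIs lay in epithelial cells. Over all epithelial cells of a segment it was at 2088, 1663, 977, 2085 and 2023 CPM, against 20.6, 161, 16.1, 19.8 and 13.9 CPM in immune cells other than the B lineage. The ileal level was the lowest of the 5. A Pigr UMI was found in 4690 of 4937 epithelial cells at a median depth of 31495 UMIs, and in 245 of 1962 of these immune cells (12.5%) at a median depth of 5274 UMIs. After thinning to 1000 UMIs the shares were 73.5% and 3.12%. The high jejunal immune value came mostly from 524 UMIs in dendritic cells, of which 34 of 129 had any and 1 had 91. Among 24 jejunal endothelial cells 3 had Pigr UMIs, 143 in all, with 141 in 1 cell. Whether these droplets also held epithelial material was not tested.

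Pigr was present at a high level in goblet, absorptive and crypt cells. Goblet cells were at 1039, 1451, 934, 2266 and 1826 CPM, absorptive cells at 2600, 1564, 441, 1319 and 2865 CPM, and crypt cells at 1575, 1872, 1548, 2315 and 1951 CPM. Absorptive cells as named here thus had the widest range, with ileum lowest, and crypt cells the narrowest. The ileal absorptive value leaves out a further 245 ileal epithelial cells that shared leading genes with them and are described below. Rectum was highest in absorptive cells, but with TMM factors duodenum was, at 3498 CPM against 2959 CPM in rectum. Means over the 5 libraries were 1503 ± 554 CPM in goblet, 1758 ± 987 CPM in absorptive and 1852 ± 314 CPM in crypt cells (SD).

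Differences were tested by an exact two-sided sign-flip permutation test over the 5 libraries, for 3 pairs, where the smallest p possible is 0.062, so that no pair could pass 0.05. Goblet cells were lower than crypt cells in 5 of 5 libraries, with a mean log2 difference of -0.36 ± 0.30 (SD, exact p = 0.062, adjusted 0.188). The differences by library were -0.60, -0.37, -0.73, -0.03 and -0.10. Absorptive cells were higher than crypt cells in 2 of 5 libraries, duodenum and rectum, with a mean log2 difference of -0.32 ± 1.04 (exact p = 0.5625, adjusted 0.844). Without ileum that mean was 0.052. Goblet cells were higher than absorptive cells in 2 of 5 libraries, ileum and colon, with a mean of -0.04 ± 0.99 (exact p = 0.9375, adjusted 0.938). Of 6 other cell filters and clusterings, 5 left no more than 4 libraries for pairs with crypt cells.

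**Figure D5:**
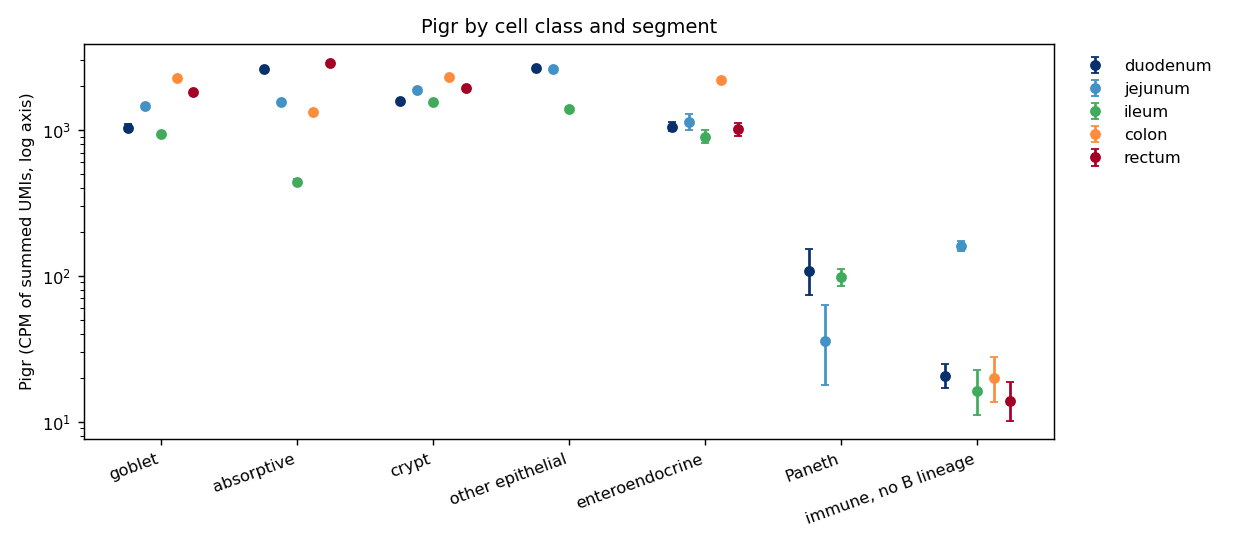
Pigr level in epithelial classes and, at the right, in immune cells other than the B lineage, as CPM of summed UMIs on a log axis, with 1 coloured point per segment and exact Poisson intervals as bars. Ileal absorptive cells (441 CPM) lie below all other absorptive points, and Paneth-like cells (35.5 to 108 CPM) lie below every other epithelial class shown.

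The other epithelial classes filled out this range. Epithelial clusters without a more specific name were at 2677 and 2609 CPM in duodenum and jejunum, where they were led by Rbp7, Car4, Alppl2 and Reg1, and at 1392 CPM in ileum, where Reg3g, Reg3b and Fabp6 led. The 245 ileal cells of this kind stood above the 343 ileal absorptive cells, at 441 CPM. Pigr in enteroendocrine-like cells was at 1054, 1130, 901, 2187 and 1013 CPM, the colonic value being the highest. Paneth-like cells were at 108 CPM in duodenum (8 cells), 35.5 CPM in jejunum (4 cells) and 97.4 CPM in ileum (23 cells, interval 85.0 to 111 CPM), below all other epithelial classes. The duodenal and ileal values were above the immune background of their segments (20.6 and 16.1 CPM), and the jejunal value was below that of its own (161 CPM). The 24 tuft-like cells were at 723 CPM (631 to 824 CPM), but 104 and 83 of their 224 UMIs came from 1 duodenal and 1 jejunal cell.

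Of genes on the route that the receptor travels, Rab25, a recycling endosome GTPase of epithelia, and Rab11a, a GTPase that it works with, were present in goblet, absorptive and crypt cells of all segments, with Rab25 at 200 to 347, 112 to 360 and 189 to 330 CPM and Rab11a at 94.4 to 111, 89.8 to 181 and 63.9 to 92.9 CPM in these classes. Myo5b, the myosin motor of apical recycling, differed more: it was at 22.1, 27.1, 24.7, 32.5 and 30.5 CPM in goblet cells, at 191, 252, 277, 111 and 65.9 CPM in absorptive cells and at 35.1, 45.2, 35.4, 32.3 and 21.2 CPM in crypt cells. Absorptive cells stood above both other classes in every library. Rab3d, which binds dimeric IgA-loaded receptor in rat liver, was at 122 to 167 CPM in goblet cells, against 1.64 to 35.7 CPM in absorptive and 9.26 to 51.1 CPM in crypt cells. Fcgrt, the neonatal Fc receptor that carries IgG, was at 1.70 to 23.6 CPM in goblet, 36.2 to 75.9 CPM in absorptive and 17.7 to 44.9 CPM in crypt cells. Tnfsf13, which encodes the plasma cell survival factor APRIL, was at 21.3 to 44.6 CPM in goblet, 2.68 to 41.5 CPM in absorptive and 14.7 to 33.1 CPM in crypt cells. Among these classes its lowest value was in ileal absorptive cells, which were also the lowest of them in Pigr. A link between these genes was not tested.

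The genes most like Pigr across 22 groups of epithelial class and segment, of 11720 compared on log2(CPM + 1), were Dlat, a subunit of pyruvate dehydrogenase (r = 0.93), the respiratory chain genes Ndufb5 and Ndufc2 (r = 0.93 for each), the ATP synthase gene Atp5g1 (r = 0.92) and Cox10, of haem A synthesis (r = 0.92). All 5 act in mitochondria. The groups include ileal Paneth-like cells, at 97.4 CPM of Pigr, against at least 441 CPM in every other group. How far these r values rest on that group was not tested. The groups share libraries and cell filters, and the values are descriptions.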

How the data were processed

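Droplet RNA libraries from 5 mouse gut segments, 1 each, were used. The values deposited by the authors are raw UMI counts, whole numbers for each gene in each barcode. Per the submitters' processing notes Cell Ranger 4.0.0, Seurat and mm10 were used, whereas per the file headers the matrices came from cellranger 7.2.0. The spatial libraries that the design text mentions were not analysed here.

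Of the barcodes, 12255 had 300 or more genes and no more than 20% of UMIs from mitochondrial genes, and from these 333 doublets, the top Scrublet scores at 0.8% per 1000 barcodes, were removed in scanpy 1.11.5. Clusters came from 2000 variable genes, 30 principal components, 15 neighbours and Leiden resolution 1, without 392 immunoglobulin genes, Jchain and Pigr, and were named from 19 marker lists, by at least 3 markers raised 1.5-fold (prior of 5 CPM) in at least 10% of cells. Absorptive cells are enterocyte-like and colonocyte-like clusters together. Names rest on transcripts alone.

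Switched against IgM/IgD cells were tested with edgeR 4.0.16 (quasi-likelihood, TMM, filterByExpr, at least 10 cells a side), without immunoglobulin genes. The p-values reflect how these 5 libraries vary, which may be technical. In simulated data for this comparison with 6941 genes, 98% of 4-fold and 78% of 2-fold changes were recovered. The changed genes had a mean of at least 20 UMIs. All genes were given the same spread, and each gene the same mean level in every library. Recovery at lower counts, or with differences between segments, was not tested. Alternatives used DESeq2 1.42.0, other scalings, filters, clusterings and rules for the heavy chain class, and left out libraries. Named genes are the members, the 10 largest changes each way that went the same way in every library, and list members. A few of these are counted in the lists but not reported here by name. The members, the gene lists (11) and the tests were chosen with earlier results of these data known. The rule that set cells aside and 5 alternatives (germinal centre cells left out of the fit or of the shares, IgG cells alone, at least 20 heavy chain UMIs in the fit, set-aside cells kept) were chosen after seeing the data.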

Additional observations from a re-analysis of the deposited data

How the results depend on the processing

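Results were recomputed with other filters, clusterings, scalings and class rules. The IgA share of plasma-like cells kept within its counting error in every segment under every alternative run (lowest 89.3%). The switched share of B-like cells depended on the rule. With at least 20 heavy chain UMIs it was 9.72%, 12.99%, 19.8%, 8.0% and 8.47% from duodenum to rectum. With germinal centre cells left out it was 1.91%, 4.47%, 3.01% and 1.497% from duodenum to colon. With at least 80% of UMIs in 1 class it was 4.99% in ileum and 2.39% in colon, and with the set-aside cells kept it was 9.51% in rectum.

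The Pigr level in epithelial cells was lowest in ileum under every alternative run. From duodenum to rectum it was 2202, 1697, 998, 2019 and 1985 CPM with every deposited barcode, 1504, 1522, 927, 2018 and 1718 CPM at most 10% mitochondrial UMIs, 2233, 1757, 936, 2134 and 1998 CPM as a mean over cells and 2118, 1780, 1009, 2011 and 1869 CPM with TMM factors. With no doublets removed it was 959 CPM in ileum. The absorptive against crypt difference turned to 0.16 (log2) at most 10% mitochondrial UMIs and to 0.22 with TMM factors, and ran between -0.58 and 0.052 with a library left out. Goblet against absorptive turned to 0.025 with every barcode, 0.15 with doublets kept, 0.027 and 0.011 at resolution 2 and 0.5, and 0.17 with the members kept in clustering, and ran between -0.33 and 0.28 with a library left out. Goblet against crypt ran between -0.49 and -0.20 over all alternatives and between -0.45 and -0.27 with a library left out.

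Of genes between switched and IgM/IgD cells, 117 were higher and 199 lower with cells paired by UMIs, 238 and 254 without germinal centre cells, and 434 and 489 with at least 20 heavy chain UMIs (3 libraries). With a library left out, 771 to 1257 were higher and 774 to 1105 lower. DESeq2 gave 1002 higher and 905 lower. The log2 fold of Jchain ran between 2.49 and 4.18. With cells paired by UMIs Cxcr4 was at 0.080, Fcrl5 at -0.089, Slamf7 at -0.044 and Marcksl1 at -0.11. Among cells outside the germinal centre Bcl6 was at -4.06, Cd40 at 0.047, Ccr7 at 0.36, Marcksl1 at -0.30 and Lyn at 0.059, and in IgG cells alone Fcrl5 was at -0.73. The causes of these shifts were not tested. The alternatives for IgA against IgM plasma-like cells were not run, with 3 IgM cells. Without the library term 1010 were higher and 879 lower. Both tests compare cell groups within each library, and no replicate numbers pair the segments, with 1 library each. Depth limits calls of class in B-like cells, whose median heavy chain count was 11 UMIs.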
